A study of Homo sapiens with 9 samples.

Results

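The mitotic kinases and chromosomal passenger genes followed here were 10 of the 58735 genes in the deposited table, chosen by name for their part in mitosis. They encode the Aurora kinases AURKA and AURKB, the Aurora A partner TPX2, the Aurora B partner BIRC5 (survivin), the Polo-like kinases PLK1 and PLK4, the spindle checkpoint proteins BUB1, BUB1B and TTK, and the centrosomal kinase NEK2. The rule for choosing them used no measured value, although earlier results of these data were known when it was made, and all 10 passed the filter on low counts in each comparison. The RNA came from KHM-5M, a human thyroid cancer line, cultured for 24 h in DMSO alone, in 0.3 μM YK-4-279 or in 1 μM YK-4-279, an inhibitor of ETS transcription factors. There were 3 samples in each of the 3 groups, all from this single line, and the same solvent-treated samples served as the reference for both doses. The labels do not say whether the samples of a group came from separate cultures, so the p-values measure the spread between these samples, which may be technical.

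The total count per sample lay between 16903251 and 18238884, and the lowest count of any of the 10 genes in any sample was 677. Of 7 thyroid lineage markers, only PAX8 was well expressed (21.6 to 27.7 FPKM). FPKM is the read number scaled to gene length and to library size. FOXE1 did not exceed 0.567 FPKM, NKX2-1 did not exceed 0.174, and TG, TSHR, SLC5A5 and DUOX2 had at most 4 counts in any sample. Among 7 markers of blood, endothelial and stromal cells, COL1A1 was at 32.5 to 56.4 FPKM and the others had at most 8 counts.

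Mitosis is run by a small set of kinases that are made anew in each cycle and destroyed after it. Aurora A, switched on by TPX2, acts at the spindle poles, while Aurora B works at the inner centromere within the chromosomal passenger complex, which it forms with INCENP, survivin and borealin (CDCA8). PLK1 promotes mitotic entry and spindle assembly, PLK4 starts centriole duplication, and TTK, BUB1 and BUB1B build the checkpoint that delays anaphase until every chromosome is attached. Transcripts of these genes peak in G2 and mitosis and are controlled largely by the MuvB complex with B-MYB and FOXM1, which acts through a promoter element named CHR, commonly beside CCAAT boxes bound by NF-Y. In an unsorted culture, a change in the share of cells in these phases and a change in RNA per cell cannot be told apart. By flow cytometry, the paper reported a significantly larger G2/M share at the higher dose in all lines it tested. It reported no significant increase at the lower dose. Those cells were taken at an earlier time than the RNA.

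At 1 μM the Aurora kinases moved in opposite directions. AURKB fell to 69.7% of its DMSO mean and TTK to 75.0%, while AURKA rose to 119%, and the other 7 genes did not pass the test. At 0.3 μM none of the 10 passed. With an adjusted p under 0.05 as well, the number of the 10 past the study's limit of 1.5-fold was 0 at both doses. At 1 μM 4.12% of all genes tested met both limits and were lower, and 1.37% met both and were higher. At 0.3 μM no gene tested met both, since none had an adjusted p under 0.05. The paper's rule names a P-value under 0.05, and it did report differentially expressed genes at 0.3 μM.

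**Figure D1:**
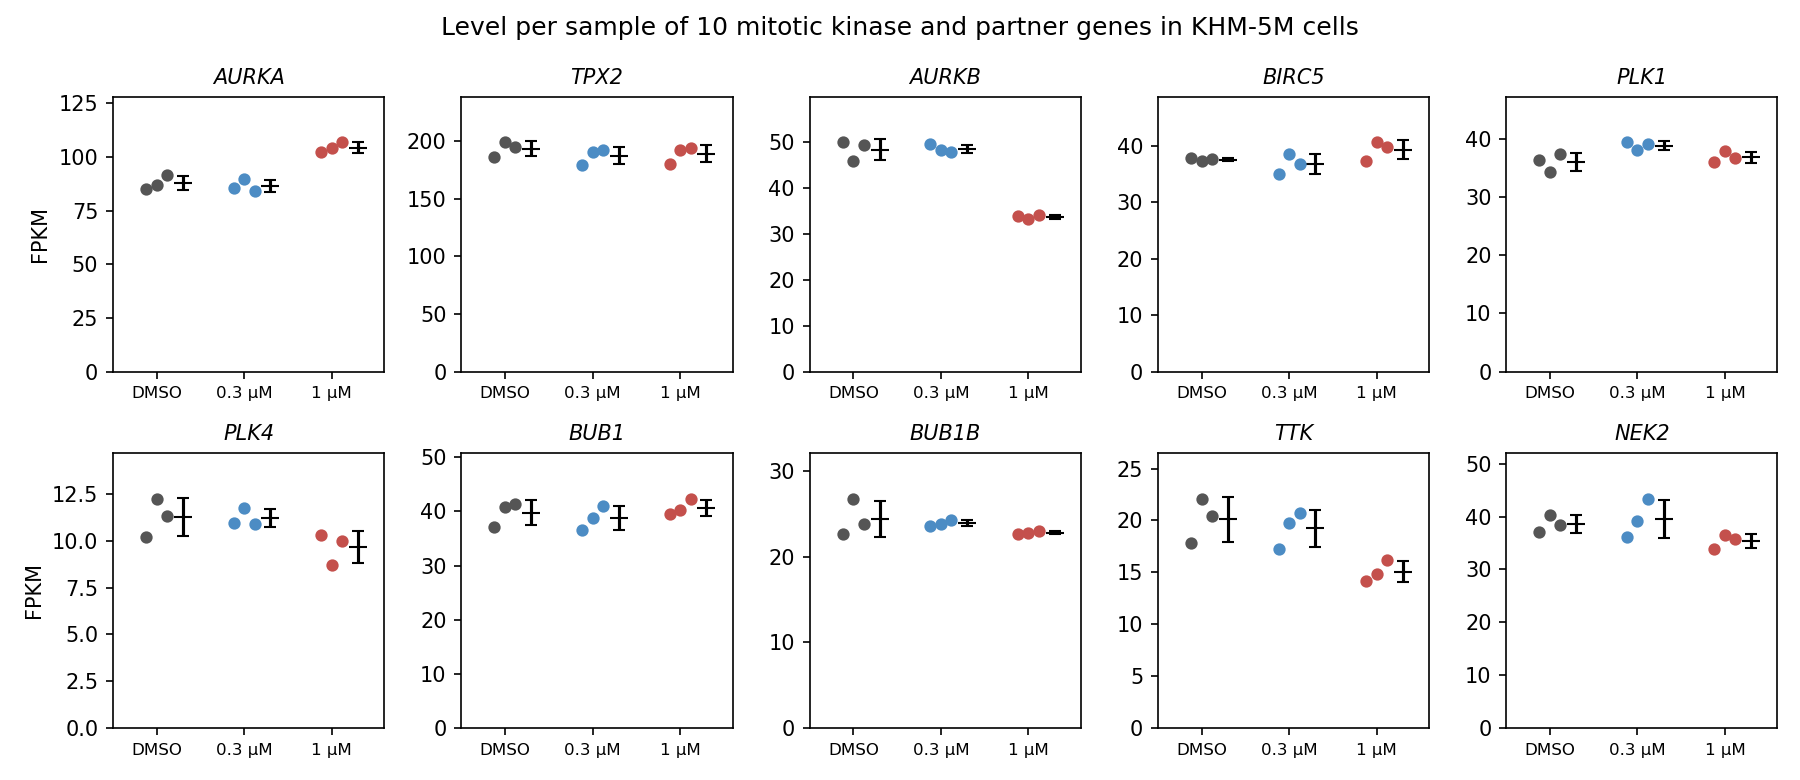
Deposited FPKM of each of the 10 genes (vertical axis, starting at 0) in the 3 samples of each group (horizontal axis), with the mean and SD (n = 3) as a bar beside the points. The 1 μM points of AURKB (33.1 to 34.0) and TTK (14.2 to 16.2) lie under all DMSO points, and those of AURKA (102 to 107) lie over them.

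In DMSO the 10 genes were among the more abundant transcripts of the line. Measured in FPKM, so per length, TPX2 was the highest with a mean of 193.3 ± 6.28 (SD, n = 3), above 98.8% of the 12806 genes with a mean of at least 1 FPKM. AURKA followed with 87.9 ± 3.21 and AURKB with 48.3 ± 2.25. BUB1 (39.7 ± 2.31), NEK2 (38.6 ± 1.65), BIRC5 (37.6 ± 0.259) and PLK1 (36.0 ± 1.58) came next, and each neighbour in that order overlapped the next in range. BUB1B (24.4 ± 2.11), TTK (20.1 ± 2.16) and PLK4 (11.3 ± 1.03) were the lowest, each clear of its neighbours, and even PLK4 lay above 69.0% of the expressed genes. At 0.3 μM the first 3 and last 3 places were held by the same genes as in DMSO. At 1 μM AURKB moved from rank 3 to rank 7, where its range overlapped that of NEK2 above it, and the remaining order again had BUB1, BIRC5, PLK1 and NEK2 overlapping in turn.

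AURKB (ENSG00000178999, chromosome 17 from 8204733 to 8210600 in GRCh38, minus strand) had 49.8, 45.7 and 49.3 FPKM in the DMSO samples, 49.5, 48.1 and 47.6 at 0.3 μM, and 33.8, 33.1 and 34.0 at 1 μM. The 6 samples in DMSO and 0.3 μM were alike, and the 1 μM samples stood well below them with a CV of 1.29%. The log2 fold change at 1 μM against DMSO was -0.54 (standard error 0.06, 95% interval -0.67 to -0.41), and the quasi-likelihood test of edgeR gave an adjusted p of 6.05e-05 (Benjamini-Hochberg over 15617 genes). AURKB was lower in 3 of 3 samples, and the value stayed between -0.57 and -0.51 with each sample left out.

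Promoter sequence was taken from RefSeq (GRCh38.p14) as windows of 300 bases, from 250 before to 50 after a transcript start. They were given for 6 of the 10 genes (9 windows), AURKB, PLK1, PLK4, BUB1, BUB1B and NEK2, and not for AURKA, TPX2, BIRC5 and TTK. Both strands were searched for the CHR (TTTGAA or TTCGAA), the NF-Y box (CCAAT), an ETS core (CCGGAA) and 3 E2F-like elements (the first TTCCCGC, the next TTGGCGC and the last TTCGCGC). The stretches of 30 bases around the ETS core and CHR matches are shown because the drug targets ETS factors and the CHR marks G2 and M genes. They read 5′ to 3′ on the strand of the gene, with the match in capitals. The capitals of both ETS cores, and of the CHR of PLK4, show a match on the opposite strand.
AURKB, ETS core: tcgggctagcgcTTCCGGctcgatcggtcc
PLK4, ETS core: tctccgcagcgcTTCCGGcccttggccccg
PLK1, CHR: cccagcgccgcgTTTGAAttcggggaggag
BUB1B, CHR: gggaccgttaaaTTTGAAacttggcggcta
BUB1, CHR: ctgcgcggggtaTTCGAAtcggcggcggct
PLK4, CHR: ggcaagcggcgggagattTTCAAAatggga
The AURKB stretch is chr17:8210311-8210340 on the minus strand, within the gene's span in the deposited table, and the match begins 103 or 79 bases before the start, depending on the transcript. The PLK4 stretches are chr4:127880771-127880800 and chr4:127880913-127880942 (plus strand), that of PLK1 is chr16:23678848-23678877 (plus strand), that of BUB1B is chr15:40161034-40161063 (plus strand) and that of BUB1 is chr2:110678045-110678074 (minus strand). An ETS core was found for 2 of the 6 genes and in 17.2% of all 35116 promoter windows. A CHR was found for 4 of the 6 and in 16.4% of all windows, and a CCAAT box for 5 of the 6 (all but BUB1B) and in 34.6%. An E2F-like element was found in a PLK4 window alone among the 6 genes and in 11.0% of all windows. The counts of genes take a match in any window of a gene, and the percentages are of single windows. AURKB had 2 windows, which overlap, and PLK4 had 3, so the counts and percentages are not like for like. Neither AURKB window held a CHR with these letters, nor did that of NEK2. These are matches of letters and do not show binding.

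Among the other subunits of the passenger complex, INCENP fell and BIRC5 and CDCA8 did not pass the test. INCENP, the scaffold that activates Aurora B, fell from 52.7 to 57.3 FPKM in DMSO to between 40.5 and 42.5 at 1 μM, a log2 difference of -0.44 (standard error 0.06, adjusted p = 0.000195, edgeR, Benjamini-Hochberg). BIRC5 (ENSG00000089685, chromosome 17 from 78214186 to 78225636) had 37.8, 37.3 and 37.6 FPKM in DMSO, 35.1, 38.6 and 36.8 at 0.3 μM, and 37.4, 40.6 and 39.9 at 1 μM. The groups overlapped, and the log2 fold change at 1 μM was 0.05 with a 95% interval from -0.07 to 0.17. Borealin, encoded by CDCA8, was at 42.3 to 43.7 FPKM in DMSO and 43.3 to 44.6 at 1 μM, so that the log2 fold change was 0.02 (standard error 0.06).

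The ratio of BIRC5 to AURKB, from FPKM values within a sample, was 0.758, 0.816 and 0.763 in DMSO and 1.11, 1.23 and 1.17 at 1 μM. That of CDCA8 to AURKB went from between 0.855 and 0.956 to between 1.31 and 1.32. Both sets were apart in all samples, and both had a two-sided exact permutation p of 0.1, the smallest that 3 samples against 3 can give. As BIRC5 and CDCA8 did not pass, both ratios largely restate the fall of AURKB. The ratio of INCENP to AURKB was 1.15 ± 0.09 (SD, n = 3) in DMSO and 1.23 ± 0.03 at 1 μM, and the groups overlapped (exact permutation p = 0.4). At 0.3 μM all 3 ratios overlapped those in DMSO. The ratio of BUB1B to BUB1 was also apart at 1 μM, at 0.543 to 0.574 against 0.577 to 0.656 in DMSO (exact permutation p = 0.1). Neither of those genes passed on its own. BUB3 to BUB1 and PLK4 to PLK1 overlapped at 1 μM (exact permutation p = 0.2 for each). How often ratios of other gene pairs are apart was not tested.

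**Figure D2:**
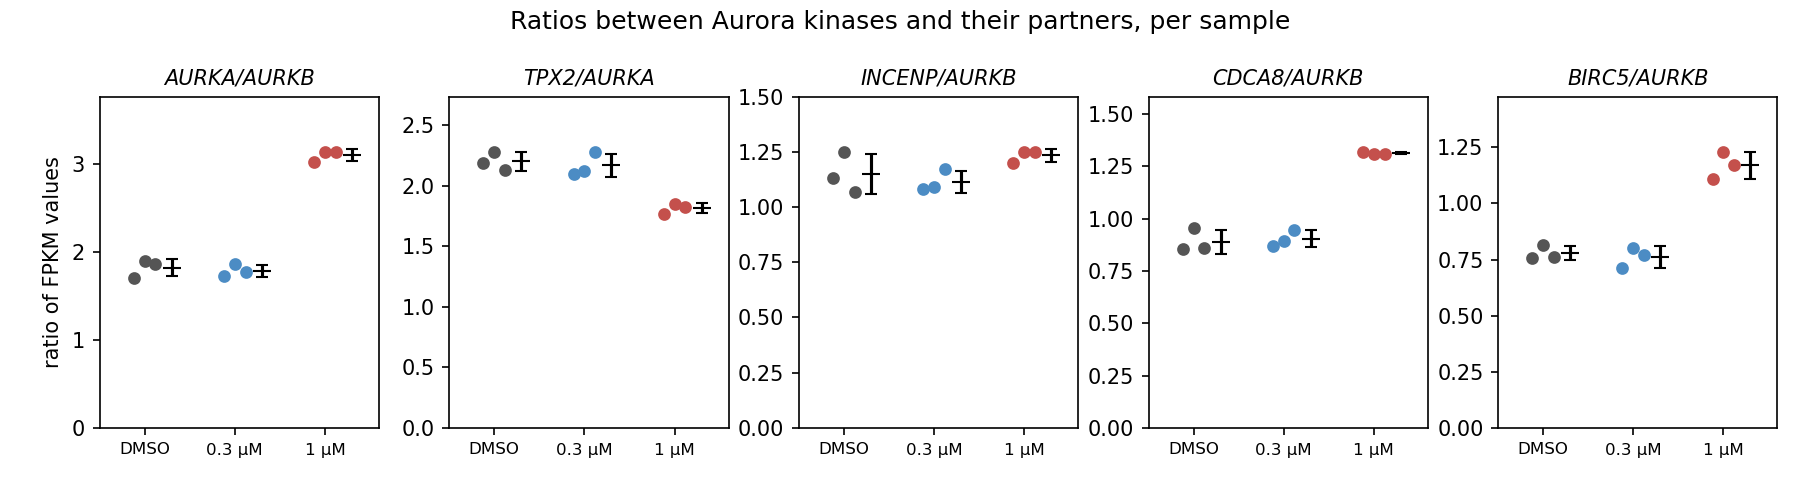
Ratio of FPKM values of 2 genes in each sample (vertical axes, starting at 0) by group, with the mean and SD (n = 3) as a bar beside the points. AURKA/AURKB, CDCA8/AURKB and BIRC5/AURKB are higher and TPX2/AURKA is lower in all 3 samples at 1 μM than in any DMSO sample, while INCENP/AURKB overlaps.

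AURKA (ENSG00000087586, chromosome 20 from 56369389 to 56392337) had 85.2, 87.0 and 91.4 FPKM in DMSO, 85.3, 89.6 and 84.2 at 0.3 μM, and 102, 104 and 107 at 1 μM. All 3 samples at 1 μM were above the other 6. The log2 fold change at 1 μM was 0.23 (standard error 0.05, 95% interval 0.12 to 0.35), with an adjusted p of 0.00877, edgeR, Benjamini-Hochberg. With a sample left out the adjusted p (edgeR) was at most 0.0499, reached without replicate 3 of the 1 μM group, and the log2 fold change was 0.21 to 0.26.

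TPX2 (ENSG00000088325, chromosome 20 from 31739271 to 31801805), which activates Aurora A and brings it to spindle microtubules, had 186.4, 198.7 and 194.8 FPKM in DMSO and 180.3, 192.5 and 194.2 at 1 μM. These groups overlapped, and the log2 fold change was -0.05 (95% interval -0.16 to 0.07). The ratio of TPX2 to AURKA was therefore lower at 1 μM, at 1.77 to 1.85 against 2.13 to 2.28 in DMSO (exact permutation p = 0.1). AURKA to AURKB went from 1.82 ± 0.101 (SD, n = 3) in DMSO to 3.10 ± 0.0694 at 1 μM, a log2 difference of 0.77 with the same exact permutation p of 0.1. At 0.3 μM the ratio of AURKA to AURKB was 1.79 ± 0.07, within the DMSO range of 1.71 to 1.90.

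TTK (ENSG00000112742, chromosome 6 from 80003887 to 80042527), the MPS1 kinase that starts checkpoint signalling at unattached kinetochores, had 17.8, 22.1 and 20.4 FPKM in DMSO. Its values were 17.3, 19.8 and 20.7 at 0.3 μM and 14.2, 14.9 and 16.2 at 1 μM. The 1 μM samples were below every other sample, by a narrow margin for the lowest one at 0.3 μM. The log2 fold change at 1 μM was -0.43 (standard error 0.08, 95% interval -0.60 to -0.26), with an adjusted p of 0.00234, edgeR, Benjamini-Hochberg, and it was -0.51 to -0.35 with a sample left out.

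The 2 BUB genes did not pass. BUB1 (ENSG00000169679, chromosome 2 from 110637698 to 110678114), a kinase that marks centromeric histone H2A, had 37.1, 40.8 and 41.3 FPKM in DMSO and 39.5, 40.3 and 42.4 at 1 μM. The groups overlapped, with a log2 fold change of 0.02 (95% interval -0.11 to 0.14). BUB1B (ENSG00000156970, chromosome 15 from 40161023 to 40221136), which encodes the checkpoint protein BUBR1, had 22.7, 26.8 and 23.8 in DMSO and 22.7, 22.8 and 23.0 at 1 μM. Its DMSO values were spread by replicate 2, and the log2 fold change of -0.12 had a 95% interval from -0.26 to 0.03. BUB3, the adaptor of both proteins, was lower by a log2 value of -0.14 (standard error 0.06, adjusted p = 0.125, edgeR, Benjamini-Hochberg).

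PLK1 (ENSG00000166851, chromosome 16 from 23677656 to 23690367) had 36.4, 34.3 and 37.4 FPKM in DMSO, 39.4, 38.1 and 39.1 at 0.3 μM, and 36.0, 37.9 and 36.7 at 1 μM. All samples at 0.3 μM were above those in DMSO, a separation in that direction found in 3.16% of all genes tested, but the log2 fold change there was 0.11 (95% interval -0.03 to 0.25) with an adjusted p of 0.995, edgeR, Benjamini-Hochberg. At 1 μM the log2 fold change was 0.02 (95% interval -0.10 to 0.14).

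PLK4 (ENSG00000142731, chromosome 4 from 127880861 to 127899195) had 10.2, 12.3 and 11.4 FPKM in DMSO and 10.3, 8.72 and 9.98 at 1 μM, with overlap between the groups. Its log2 fold change of -0.24 (95% interval -0.42 to -0.06) had an adjusted p of 0.0692, edgeR, Benjamini-Hochberg. Without replicate 1 of DMSO, the lowest of that group, it was -0.30 with an adjusted p of 0.0311 (edgeR). Leaving out the lowest DMSO sample widens a fall by itself. Over the 6 fits with a sample left out, the value ran from -0.30 to -0.17, with an adjusted p up to 0.261 (edgeR). In the other refits of edgeR and in DESeq2 the adjusted p was 0.0738 to 0.125. NEK2 (ENSG00000117650, chromosome 1 from 211658657 to 211675630), which loosens the link between centrosomes before division, had 37.0, 40.3 and 38.4 FPKM in DMSO and 33.9, 36.5 and 35.8 at 1 μM. These groups did not overlap, and the log2 fold change of -0.14 (95% interval -0.27 to -0.01) had an adjusted p of 0.120 (edgeR, Benjamini-Hochberg).

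**Figure D3:**
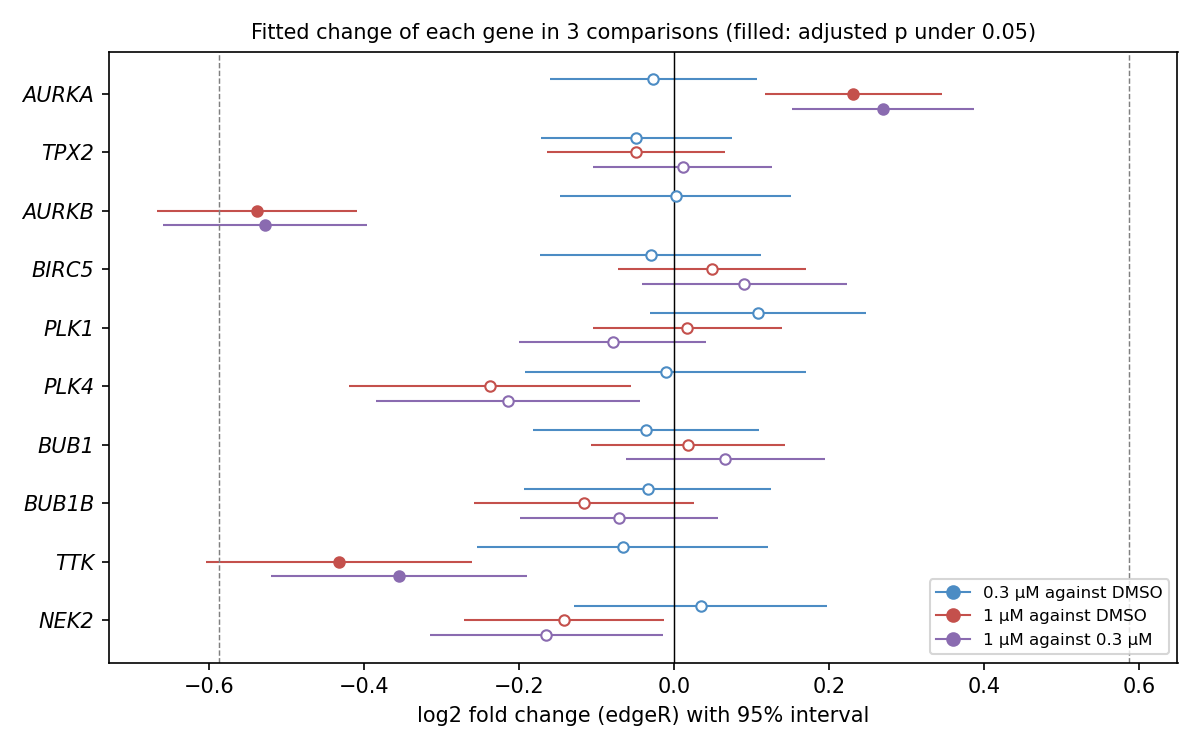
Log2 fold change (horizontal axis) with its 95% interval for each of the 10 genes in the 3 comparisons, filled where the adjusted p was under 0.05, with dashed lines at 1.5-fold. Only AURKA, AURKB and TTK are filled, in both comparisons that hold the 1 μM samples, and all intervals at 0.3 μM cross 0.

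Counted over the 10 genes, 2 were lower and 1 was higher than in DMSO at 1 μM with an adjusted p under 0.05. Over all 15617 genes tested, 9.95% were lower and 7.67% higher by the same rule, 17.6% in either direction. In CPM (counts scaled to library total) the groups did not overlap for 4 of the 10 that were lower (AURKB, TTK, NEK2 and BUB1B) and for 1 that was higher (AURKA), against 19.1% and 16.7% of all genes tested. For BUB1B this did not hold in FPKM. Log2 fold changes under 0 were held by 6 of the 10 and by 51.3% of all genes. The median log2 fold change of the 10 was -0.08, and that of all genes tested was -0.01.

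At 0.3 μM against DMSO the number that passed was 0 of 10, and 0% of all 15762 genes tested passed. By an unadjusted p under 0.05 in edgeR the number was also 0 of the 10, against 3.77% of all genes, and DESeq2 called 0. The log2 fold changes ranged from -0.07 for TTK to 0.11 for PLK1, with 7 of 10 under 0, against 49.7% of all genes. The groups did not overlap for PLK1 alone, and for 0 of the 10 in the lower direction, against 5.27% of all genes. AURKB had 0.0022 (95% interval -0.15 to 0.15), AURKA -0.03 (-0.16 to 0.11) and TTK -0.07 (-0.25 to 0.12), so these intervals leave out at 0.3 μM a fall of AURKB or a rise of AURKA as large as the values fitted at 1 μM.

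The direct comparison of 1 μM with 0.3 μM, which uses no DMSO sample, gave the same 3 genes. AURKB fell by 0.53 on the log2 scale (standard error 0.06, adjusted p = 6.97e-05), TTK fell by 0.35 (standard error 0.08, adjusted p = 0.00759) and AURKA rose by 0.27 (standard error 0.06, adjusted p = 0.00473), all from edgeR after Benjamini-Hochberg adjustment. Over 15583 genes, 6.75% were lower and 5.85% higher. The other 7 genes had an adjusted p of at least 0.0921 (PLK4, log2 fold change -0.21), although the CPM of PLK1, PLK4, NEK2 and BUB1B at 1 μM lay below all those at 0.3 μM, as they did for AURKB and TTK and for 16.1% of all genes tested. An unadjusted p under 0.05 was reached by 5 of the 10 (4 lower), against 27.6% of all genes (14.3% lower). The number past 1.5-fold with an adjusted p under 0.05 was 0, against 2.34% lower and 0.86% higher. Both comparisons share the 1 μM samples.

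The genes that work with these kinases are given next, from lists written by hand, for 1 μM against DMSO. Of 12 further Aurora and centromere partners tested, INCENP fell and 11 did not pass, with a median log2 fold change of -0.15. The share of this list that fell, 8.33%, was near the 9.95% of all genes tested. Values that did not pass included -0.22 for HASPIN, the kinase whose histone H3 mark recruits the passenger complex, and -0.13 for BORA, the Aurora A cofactor that activates PLK1. SGO2, a centromere protector, had -0.37 (adjusted p = 0.0941, edgeR, Benjamini-Hochberg). The lowest value of the list was that of AURKC, the third Aurora kinase, at -0.84 (standard error 0.33, adjusted p = 0.0957, edgeR, Benjamini-Hochberg). AURKC was at most 0.86 FPKM in DMSO. Leaving out replicate 2 of DMSO gave a count of 2, as did leaving out replicate 2 at 1 μM.

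Of 10 genes around the Polo-like kinases, 4 fell and 1 rose, against 9.95% and 7.67% of all genes tested. The median was -0.10. CEP152, which recruits PLK4 to the centriole, fell from 7.68 to 9.50 FPKM in DMSO to 3.42 to 4.13 at 1 μM, a log2 difference of -1.19 (standard error 0.09, adjusted p = 8.79e-06, edgeR, Benjamini-Hochberg). SASS6, the cartwheel protein of the new centriole, fell by 0.46 on the log2 scale, PLK2, a stress-induced Polo-like kinase, by 0.22, and STIL, which PLK4 phosphorylates, also passed, with -0.21. FBXW11, a ubiquitin ligase adaptor, rose by 0.19. The FBXW11 call ended under the replicate block and when DMSO replicate 1 or 3, or replicate 1 or 3 at 1 μM, was left out (adjusted p up to 0.111 in edgeR). The STIL call ended in 5 of the 6 fits with a sample left out, all but that without DMSO replicate 1 (up to 0.162), and in DESeq2, and the PLK2 call ended without DMSO replicate 3 (0.0517). Only 2 passed when DMSO replicate 3 was left out, and 3 when the first sample at 1 μM was.

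Among 15 checkpoint and kinetochore genes, 4 fell, 2 rose and 9 did not pass, with a median of -0.18. The shares of all genes tested were 9.95% lower and 7.67% higher. Those that fell were KNTC1 (-0.58), SPC24 (-0.51), ZWINT (-0.42) and KNL1 (-0.39), and those that rose were MAD2L1BP (0.36) and ZW10 (0.23). KNTC1 and ZW10 are subunits of the RZZ complex, which ZWINT helps to recruit, and MAD2L1BP helps to switch the checkpoint off. The SPC24 value is uncertain, since whether counting used strand is not given in the sources used here. Both rises were near the threshold: the MAD2L1BP call ended in 5 of the 6 fits with a sample left out, all but that without DMSO replicate 1 (adjusted p up to 0.13 in edgeR), and the ZW10 call in 5 of 6, all but that without DMSO replicate 2 (up to 0.164), and in DESeq2. MAD2L1 (-0.18, adjusted p = 0.0565) and CDC20 (0.15, adjusted p = 0.160) did not pass (edgeR, Benjamini-Hochberg).

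In the list for the mitotic entry switch, 3 of 13 genes fell and 1 rose, against 9.95% and 7.67% of all genes tested. The median was -0.09. The fallers were CKS1B (-0.55), CDC25C (-0.34) and CDC25B (-0.21), a CDK subunit and the phosphatases that activate CDK1. CCNB1, the cyclin of mitotic CDK1, rose by 0.21 (standard error 0.06, adjusted p = 0.0205, edgeR, Benjamini-Hochberg), from 151 to 169 FPKM in DMSO to 182 to 190 at 1 μM. The CCNB1 call ended when DMSO replicate 1 or 3, or replicate 2 or 3 at 1 μM, was left out (adjusted p up to 0.0893 in edgeR). That of CDC25B ended without DMSO replicate 1 or 3 and without replicate 1 or 2 at 1 μM (up to 0.0926), and that of CDC25C without DMSO replicate 3 or replicate 2 at 1 μM (up to 0.0748). The count of 4 became 2 without replicate 1 of DMSO, and 1 when either DMSO replicate 3 or the second sample at 1 μM was left out.

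Of 22 other kinases of mitosis and of the NEK and LATS families, 7 fell, 2 rose and 13 did not pass, with a median of -0.05. The shares of all genes tested were 9.95% lower and 7.67% higher. CDK1 fell from 60.3 to 74.1 FPKM in DMSO to 40.1 to 44.4 at 1 μM, a log2 fold change of -0.68 (standard error 0.07, adjusted p = 4.01e-05, edgeR, Benjamini-Hochberg). Its inhibitory kinases fell too, PKMYT1 by 0.51 and WEE1 by 0.41. STK10 (0.28) and LATS1 (0.25) were the ones that rose. The LATS1 call ended in 5 of the 6 fits with a sample left out, all but that without DMSO replicate 2 (adjusted p up to 0.129 in edgeR), and in DESeq2. PKMYT1 overlaps PAQR4 and KREMEN2 on the opposite strand. The count of 9 became 5 when DMSO replicate 3 was left out, and 5 as well when replicate 3 at 1 μM was.

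The transcription factors of this programme did not pass. Of 16 genes of the MuvB, DREAM and NF-Y complexes with FOXM1 and B-MYB (MYBL2), edgeR called 0 and DESeq2 called 0. Of all genes tested, edgeR called 17.6%. An unadjusted p under 0.05 in edgeR was reached by 6, against 31.9% of all genes tested. Log2 fold changes were under 0 for 14 of the 16, against 51.3% of all genes, with a median of -0.09. Without replicate 1 of DMSO the number called by edgeR was 1. FOXM1 had 35.0 to 40.4 FPKM in DMSO and 36.6 to 39.2 at 1 μM, and its log2 fold change was -0.05 (standard error 0.07). MYBL2 had -0.09 (standard error 0.06).

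Of 24 late mitosis and cytokinesis genes, 11 fell and 0 rose, against 9.95% and 7.67% of all genes tested. The median was -0.20. The largest falls were those of PRC1 (-1.14), CENPE (-1.11) and KIF20B (-0.91), a spindle midzone bundler and a pair of kinesins. The PRC1 value is uncertain, since the gene lies over AC068831.7 on 1 strand and had only 46 to 148 counts in the samples compared. For CENPE the DMSO counts were 985 to 1782 and those at 1 μM were 400 to 1024. For KIF20B they were 1055 to 1653 and 450 to 1195, so that the groups overlapped for both genes. The CENPE call ended without replicate 1 or 3 at 1 μM (adjusted p up to 0.0646 in edgeR) and that of KIF20B without these or DMSO replicate 2 or 3 (up to 0.135), and neither passed in DESeq2 (0.143 and 0.255). TOP2A (-0.55), UBE2C (-0.46), CDCA3 (-0.45) and KIF23 (-0.30) were lower with no overlap of the groups, and their calls held in every refit. So did the PRC1 call, while those of CENPF, KIF11, KIF2C and ANLN ended in some refits. The count of 11 became 7 when DMSO replicate 3 was left out, and DESeq2 gave 7. It became 5 when either replicate 1 or replicate 3 at 1 μM was left out.

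The S phase list, set beside the mitotic genes, had 25 of 32 genes lower and 0 higher, with a median of -0.31, led by POLA2 (-0.74), CDC45 (-0.62) and PRIM1 (-0.51), which act in replication initiation. The PRIM1 call ended without replicate 2 or 3 at 1 μM (adjusted p up to 0.085 in edgeR). With a sample left out, the number of the list that passed lay between 17 and 25. By count, 78.1% of that list and 20% of the 10 mitotic genes were lower with an adjusted p under 0.05, against 9.95% of all genes tested. At 0.3 μM the number that passed was 0 in every list. The part that a change in the share of cells in each phase has in these values was not tested.

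**Figure D4:**
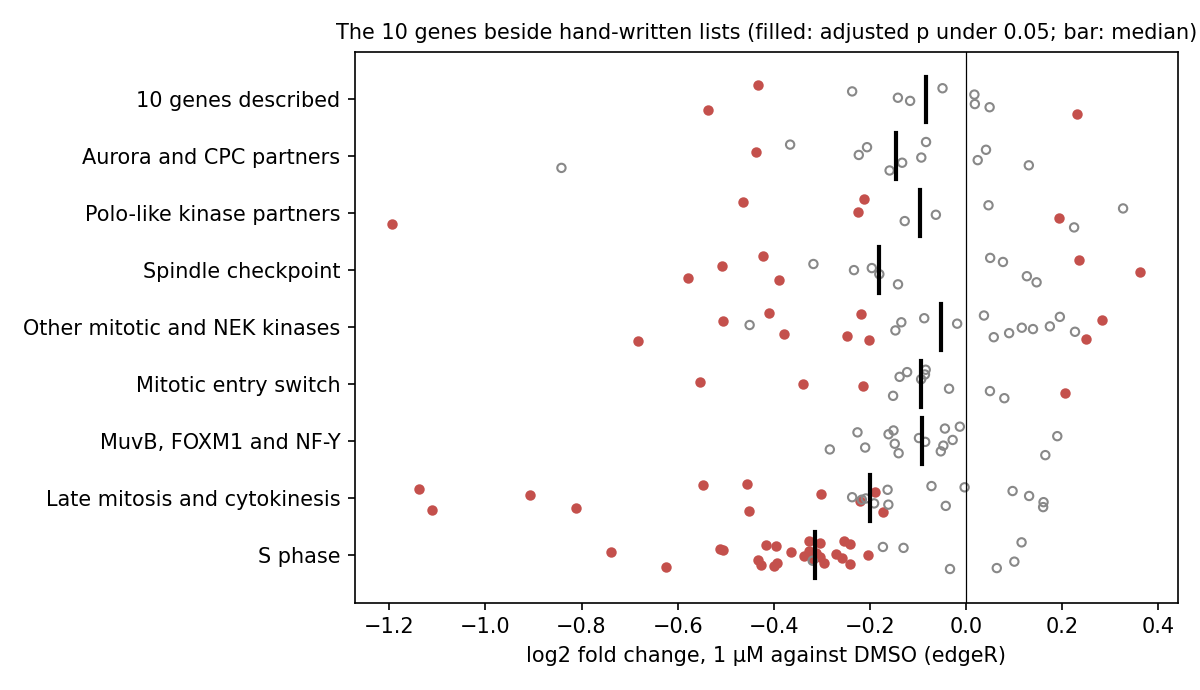
Log2 fold change at 1 μM against DMSO (horizontal axis) for each gene of the 10 and of 8 hand-written lists (rows, offset only to part the points), filled where the adjusted p was under 0.05, with a black bar at each list's median. The medians run from -0.31 for S phase to -0.05 for the other kinases, with -0.08 for the 10 genes.

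Across the 9 samples, the 10 genes did not follow a common course. Likeness was measured as the root mean square difference between log2 CPM values, each centred on the gene's own mean. TPX2 and BUB1 were the closest to each other, at 0.0445, and each was about flat, with a root mean square amplitude of 0.0486 and 0.066. AURKB was the farthest from its nearest gene, TTK, at 0.154, and had the widest amplitude, 0.253, followed by TTK with 0.215. AURKA was nearest to BIRC5, at 0.0944. The 5 other genes most like the mean course of the 10, of 11080 compared, were CCNA2, TAF8, MYLK, THRAP3 and PCCB, at 0.0223 to 0.028. The mean course itself moved only between -0.10 and 0.08, so likeness to it says mainly that a gene varied little.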

How the data were processed

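Reads of KHM-5M libraries had been aligned by the authors to GRCh38 with HISAT2 (version 2.0.5 per the submitters' processing notes). Counts per gene were deposited as whole numbers without normalization; the notes name featureCounts 1.5.0-p3 and the methods name HTseq. The authors also deposited FPKM, in which each count is divided by gene length and library size, and fold changes and p-values from DESeq2 (1.20.0 in the notes), which were not used. The methods speak of 2 biological replicates per condition where the labels give 3 samples per group, and the labels were followed. The strand setting of the counting is not given in the sources used here.

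Counts were tested with edgeR 4.0.16 in R 4.3.3: filterByExpr at a minimum count of 10, TMM, glmQLFit and glmQLFTest on the 2 groups compared, and Benjamini-Hochberg adjustment over all genes tested. Standard errors and 95% intervals came from the same fit. FPKM served for levels and ratios, the latter with two-sided exact permutation tests. On counts simulated for 1 μM against DMSO, edgeR recovered 96 of 100 genes changed by a log2 of 1 and 88 of 100 changed by 0.6, with 13 false calls over 15856 genes. The simulation gave all genes 1 common spread, taken from the DMSO samples. Its changes were balanced up and down and placed only in genes above a low expected count. Recovery in the measured data may therefore differ. Samples of 1 group differed by more than counting noise, with a chi-square of 3.2 to 10.7 for each degree of freedom.

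The genes, lists and motifs were chosen with earlier results of these data known. Named genes were the 10 and, per list, the 3 called genes with the lowest and the 3 with the highest log2 fold change. Further list members were named for their role, or for how their calls held, after their values were seen. The 5 most alike in course with a mean of at least 5 CPM were named too. Alternatives were DESeq2 1.42.0, RLE size factors, a minimum total count of 1, all 9 samples in 1 fit, the replicate block, the unadjusted p, CPM ratios and each sample left out. For a gene at 0 the upper limit was set at 3 counts (0.164 to 0.177 CPM), which covers counting error only. A further thyroid marker is not reported here.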

Additional observations from a re-analysis of the deposited data

How the results depend on the processing

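The calls on AURKA, AURKB and TTK at 1 μM, against DMSO and against 0.3 μM, held under DESeq2, RLE size factors, the minimum total count of 1, the fit of all 9 samples, the replicate block and each sample left out. The number of the 10 genes called was 5 by the unadjusted p in either comparison, with PLK4 and NEK2 added, where 31.9% of all genes tested passed at 1 μM against DMSO (16.7% with a lower value) and 27.6% against 0.3 μM. Over all genes past the count filter, same-numbered samples did not deviate together (correlations -0.02 to 0.08), so the numbers were not taken as pairs. The mean course of the 10 genes was nevertheless lowest in replicate 1 of each group (-0.0193 in DMSO, -0.0186 at 0.3 μM and -0.0991 at 1 μM). The replicate block gave 2 called Aurora partners and 3 Polo-like kinase partners. The minimum total count of 1 gave 2 Aurora partners, and DESeq2 gave 7 late mitosis genes. With a sample left out at 1 μM against DMSO, 3 to 4 of the 10 genes and 1 to 2 Aurora partners were called. The called genes were 2 to 4 for the Polo-like kinase partners, 4 to 9 for the checkpoint list and 5 to 9 for the other kinases. They were 1 to 4 for the entry switch, 0 to 1 for MuvB and FOXM1, 5 to 11 for late mitosis and 17 to 25 for S phase. Values near 0 changed sign in such fits. At 0.3 μM against DMSO the log2 fold change ranged from -0.033 to 0.028 for AURKB, from -0.076 to 0.057 for PLK4, from -0.083 to 0.040 for BUB1B, from -0.14 to 0.0098 for TTK, from -0.051 to 0.0027 for AURKA, from -0.082 to 0.0054 for BUB1, from -0.063 to 0.0047 for BIRC5 and from -0.036 to 0.096 for NEK2. At 1 μM against DMSO it ranged from -0.025 to 0.047 for BUB1 and from -0.011 to 0.043 for PLK1, and against 0.3 μM from -0.020 to 0.043 for TPX2. The 112 refits of the ratios moved none by more than its SD. The cause of these shifts was not tested. The smallest log2 size in the simulated counts was 0.6, and all 10 genes moved by less than that at 1 μM against DMSO. At that size DESeq2 recovered 71 of 100 genes. Recovery at the smaller sizes of the 10 genes was not tested.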

Other observations

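NEK2 belongs to a family of kinases related to the fungal mitotic regulator NIMA. Of the 8 other NEK genes tested at 1 μM against DMSO, edgeR called 0 and DESeq2 called 0. The share of all genes tested that edgeR called was 17.6%. An unadjusted p under 0.05 in edgeR was reached by 1, against 31.9% of all genes tested. Their log2 fold changes ran from -0.45 for NEK8, a ciliary kinase, to 0.23 for NEK11, with 3 below and 5 above 0. NEK9, which activates NEK6 and NEK7 in mitosis, had -0.02 (standard error 0.06). NEK6 had 0.12 (adjusted p = 0.181) and NEK7 had 0.17 (adjusted p = 0.0766), neither passing (edgeR, Benjamini-Hochberg). In CPM, NEK1, NEK6 and NEK7 were higher with no overlap of the groups, as were 16.7% of all genes tested. NEK3 and NEK8 were lower with no overlap, as were 19.1% of all genes tested. The groups overlapped for NEK4, NEK9 and NEK11.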
